A study of Mus musculus with 24 samples.

Results

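Brain tumours that received only vehicle were compared between the day of pump removal (day 0) and 3 days later (day 3). They are 6 of the 24 tumours of the series, 3 at each day, and were chosen by their labels. All 49315 genes counted were followed in them. Tumours were started with 200000 CT-vIII cells in the right cerebral hemisphere. CT-vIII is the mouse glioma line CT-2A carrying the mouse form of EGFR variant III, a shortened EGF receptor, together with firefly luciferase. An osmotic pump then delivered fluid straight into the tumour at 0.5 µl per hour over 72 h, begun on day 6 after implantation and ended on day 9. All 6 vehicle tumours were infused with the control fluid (2% MSA-PBS plus rat IgG2a antibody at 100 µg), so none is an untouched tumour. Day 0 tumours were taken on day 9 after implantation and day 3 tumours on day 12. The other 18 tumours received aCD40 (an agonist antibody to CD40), the EGFR-directed immunotoxin D2C7-IT, or both (D2C7-IT+aCD40), 3 in each group and day. The labels give no sex or age for the mice and no size for the tumours. Flash-frozen tissue was used without sorting, so each library mixes glioma, brain, immune, vessel and blood cells, and fewer cells of a type and less RNA per cell cannot be told apart.

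A growing glioma adds dividing cells to brain tissue and displaces neurons and glia. Its own cells, blood-derived monocytes and T cells, and the resident microglia all contribute to the RNA of a bulk sample. Interferons from T cells and myeloid cells induce antiviral genes, antigen presentation by MHC molecules and chemokines such as Cxcl9 and Cxcl10 that attract more T cells. The growth of this transplanted line and the entry of leukocytes without treatment are the background against which the treated tumours are read.

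Vehicle libraries held 43281810, 37123212 and 24697576 counts at day 0 and 37479059, 41966128 and 37400833 at day 3 (replicates 1, 2 and 3 in this order, here and in every list of 3 values below). Of the genes, 22280 had enough counts to be tested. Levels are given as CPM, counts brought to 1 common library size, with library sizes scaled by TMM factors between 0.919 and 1.06 over all 24 libraries. Pairs of replicates differed beyond counting noise, with a chi-square per degree of freedom of at least 28.2, against 1 for noise alone. The labels do not say whether the mice of a group shared a batch, so p-values measure the spread between tumours, whatever its source. In the main edgeR test this spread is pooled over the 8 groups, treated ones included.

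The 3 day 3 tumours were not alike, and every result below turns on this. Egfr, the receptor gene carried by the line (chromosome 11, 16752203 to 16918158, GRCm38), stood at 50.8, 16.1 and 18.5 CPM at day 0 and at 13.1, 283 and 343 CPM at day 3. Reads of the transgene and of the mouse's own gene are summed in this value. Day 3 replicates 2 and 3 lay far above all day 0 tumours, and replicate 1 lay below them. The chi-square per degree of freedom was 497 and 479 between replicate 1 and replicates 2 and 3, against 28.2 between replicates 2 and 3 and 40.2 to 67.9 among the day 0 tumours. On the first principal component of the 6 libraries (74.7% of the variance), day 0 lay at -26.6, -75.9 and -97.2 and day 3 at -79.8, 144 and 135. Replicate 1 therefore lay with the day 0 tumours. Its label was kept, values are given tumour by tumour, and most lists are given with and without it.

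The excitatory neuron and astrocyte lists were lowest in the tumours with the most Egfr. Summed over the 15 genes of the excitatory neuron list, levels ran from 8096 to 15006 CPM at day 0 and were 9486, 5012 and 2892 CPM at day 3. The 12 astrocyte genes summed to between 6871 and 7982 CPM at day 0 and to 6779, 2946 and 2933 CPM at day 3. For both lists, day 3 replicates 2 and 3 lay below every day 0 tumour, while replicate 1 lay within or just under the day 0 range. The inhibitory and striatal neuron list did not separate them in this way, at 1088 to 4183 CPM at day 0 and 3990, 526 and 1515 CPM at day 3. How much of each result below comes with this difference in tissue makeup was not tested.

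Counted by tumour, 20.3% of genes in day 3 replicate 1 lay above the highest day 0 tumour and 19.5% below the lowest. In replicate 2 these shares were 41.2% and 40.1%, and in replicate 3 they were 41.7% and 39.4%. The bars of genes outside the day 0 range show replicate 1 with about as many genes above as below, at a much lower share than replicates 2 and 3.

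**Figure D1:**
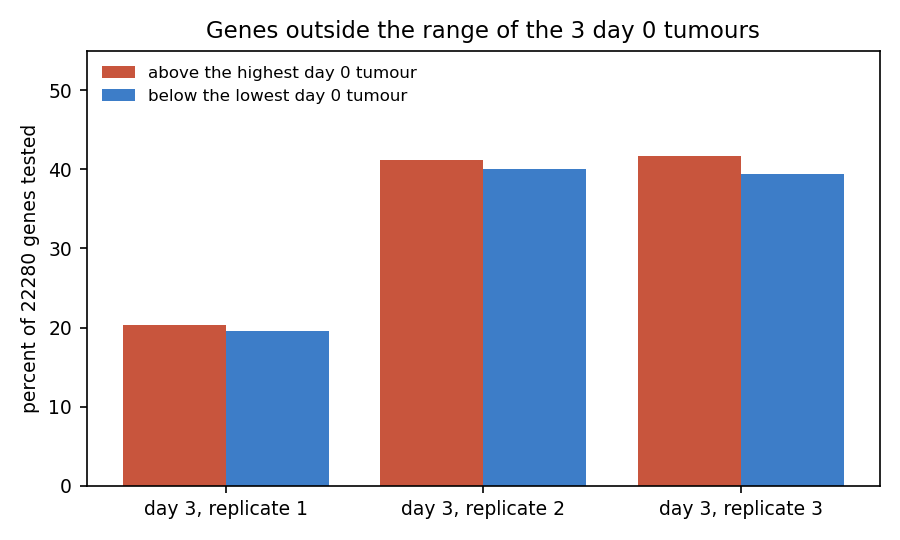
Percent of the 22280 genes tested (y axis) that lay above the highest or below the lowest of the 3 day 0 tumours, for each day 3 vehicle tumour (x axis). Replicate 1 had 20.3% above and 19.5% below, and replicates 2 and 3 had between 39.4% and 41.7% in each direction.

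With all 6 tumours, edgeR's quasi-likelihood test called 0 genes higher and 0 lower at day 3 (0.0% of those tested), with a smallest Benjamini-Hochberg adjusted p of 0.108. At an unadjusted p under 0.05 it had 6720 genes (30.2%), 4904 of them higher (22.0%) and 1816 lower (8.15%). DESeq2 called 2233 genes higher (10.0%) and 246 lower (1.1%). Without day 3 replicate 1, edgeR called 5528 of 22980 genes higher (24.1%) and 3923 lower (17.1%). Of the 2479 genes called by DESeq2, 2463 were also called by edgeR without replicate 1 (99.35% of the former and 26.06% of the latter), and all 2463 had the same sign. Calls made without replicate 1 describe day 3 replicates 2 and 3, which no label sets apart from it. Replicate 1 was singled out by its own expression values, so every adjusted p without it follows a choice made on the outcome. Here and below, such calls and p-values are descriptions and cannot test the change over 3 days. Leaving out replicates 2 and 3 instead kept a single day 3 tumour, whose spread has to be taken from the other groups. EdgeR then called 0 genes of 23842 and had 215 (0.902%) at an unadjusted p under 0.05, and DESeq2 was not run there. All 3 day 3 tumours lay above all day 0 tumours for 1445 genes (6.49%) and below them for 1481 (6.65%). The median log2 fold change over all genes tested was 0.01, with 50.57% of genes above 0.

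The gene lists below are read against these shares. With all 6 tumours, 0 genes of any list passed edgeR's test. At an unadjusted p under 0.05 it had 20 of 20 mitosis genes, 18 of 18 type I interferon genes, 17 of 19 interferon-gamma genes, 16 of 18 T cell genes, 13 of 16 collagen and matrix genes and 11 of 15 monocyte and macrophage genes, against 30.2% of all genes. DESeq2 called 11, 15, 14, 12, 9 and 7 of these higher, against 10.0% of all genes. Among 15 excitatory neuron genes 5 reached the unadjusted threshold and 0 were calls of DESeq2, and among 12 astrocyte genes these numbers were 3 and 1. "Passed" below means an edgeR adjusted p under 0.05, and list medians are of log2 fold changes.

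Genes of cell division were far higher in day 3 replicates 2 and 3. All 20 genes of the mitosis list had a positive log2 fold change, with a median of 3.42. Mki67, which marks cycling cells, stood at 35.8, 9.65 and 3.35 CPM at day 0 and at 5.10, 282 and 231 CPM at day 3. Top2a, the topoisomerase that untangles replicated DNA, stood at 52.5, 8.33 and 2.82 CPM and then at 4.40, 419 and 412 CPM. Cdk1, the kinase that drives entry into mitosis, stood at 9.13, 1.93 and 0.353 CPM and then at 1.11, 76.8 and 66.2 CPM. For all 3 genes, replicate 1 of day 3 lay inside the day 0 range. The log2 fold changes were 3.41 ± 1.31 for Mki67, 3.71 ± 1.55 for Top2a and 3.64 ± 1.51 for Cdk1 (± SE, edgeR adjusted p = 0.12 to 0.13). Without replicate 1, all 20 genes passed and the median was 3.98. Without replicates 2 and 3, 0 of the 20 had a positive value and the median was -1.48. Day 0 replicate 1 was the day 0 tumour with the highest level of the list, at a mean of 3.45 log2 CPM against 1.65 and 0.54.

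Promoters of the mitosis genes share short sequences known from the control of late cell cycle genes: the CCAAT box, bound by NF-Y, and the cell cycle homology region TTTGAA, bound by the DREAM complex and its relatives. The 250 bases before the RefSeq start (GRCm38.p6) of 3 mitosis genes are shown 5′ to 3′ on the gene's strand because the mitosis list had the highest median of the 39 lists. Capitals mark TTTGAA and CCAAT on either strand (TTCAAA and ATTGG on the other). Only genes with both motifs in this window could be shown, and these 3 also come first in the list as written. They lie on the minus strand at chr7:135716380-135716629, chr11:99024190-99024439 and chr10:69352913-69353162.
Mki67: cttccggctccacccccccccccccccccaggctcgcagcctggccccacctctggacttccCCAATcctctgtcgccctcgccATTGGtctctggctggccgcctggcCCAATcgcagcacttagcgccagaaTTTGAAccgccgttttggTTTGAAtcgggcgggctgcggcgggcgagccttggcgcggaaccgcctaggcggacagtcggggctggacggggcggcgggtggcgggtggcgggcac
Top2a: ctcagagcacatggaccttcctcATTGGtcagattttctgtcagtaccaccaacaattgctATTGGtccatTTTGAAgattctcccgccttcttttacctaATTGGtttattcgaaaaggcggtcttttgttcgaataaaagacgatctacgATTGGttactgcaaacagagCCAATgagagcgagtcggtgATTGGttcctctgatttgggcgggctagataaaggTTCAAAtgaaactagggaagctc
Cdk1: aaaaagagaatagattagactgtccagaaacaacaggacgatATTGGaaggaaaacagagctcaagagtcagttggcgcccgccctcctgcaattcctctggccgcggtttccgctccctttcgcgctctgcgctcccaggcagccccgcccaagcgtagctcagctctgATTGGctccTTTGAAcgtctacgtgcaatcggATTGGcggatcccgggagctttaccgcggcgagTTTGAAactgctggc

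The window of Mki67 held 2 TTTGAA and 3 CCAAT matches, that of Top2a 2 and 6, and that of Cdk1 2 and 3. In windows of 300 bases (250 before and 50 after the start), TTTGAA was found in 11 of 16 mitosis promoters (68.75%), against 17.89% of all 32851 mouse promoters in the table. CCAAT was found in 14 of the 16 (87.5%) against 37.41%. Promoters were found for 16 of the 20 mitosis genes. A match of this kind describes the letters, not binding.

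Genes that copy DNA moved with them. The DNA replication list had 20 of 20 positive members and a median of 2.65 (3.16 and 20 passed without replicate 1, -0.35 without replicates 2 and 3). Mcm5, part of the replicative helicase, stood at 18.8, 9.57 and 6.35 CPM at day 0 and at 7.16, 170 and 159 CPM at day 3. Rrm2, which makes deoxynucleotides, stood at 14.4, 4.12 and 1.63 CPM and then at 2.03, 108 and 103 CPM. Pcna, the sliding clamp of DNA polymerase, also serves repair, and its day 0 level was less far below, at 45.4, 33.4 and 36.5 CPM against 33.7, 151 and 142 CPM. Their promoters differed from the mitosis set in letters, with TTTGAA in 3 of 20 (15.0%) and CCAAT in 14 of 20 (70.0%), from 17 genes with an entry.

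**Figure D2:**
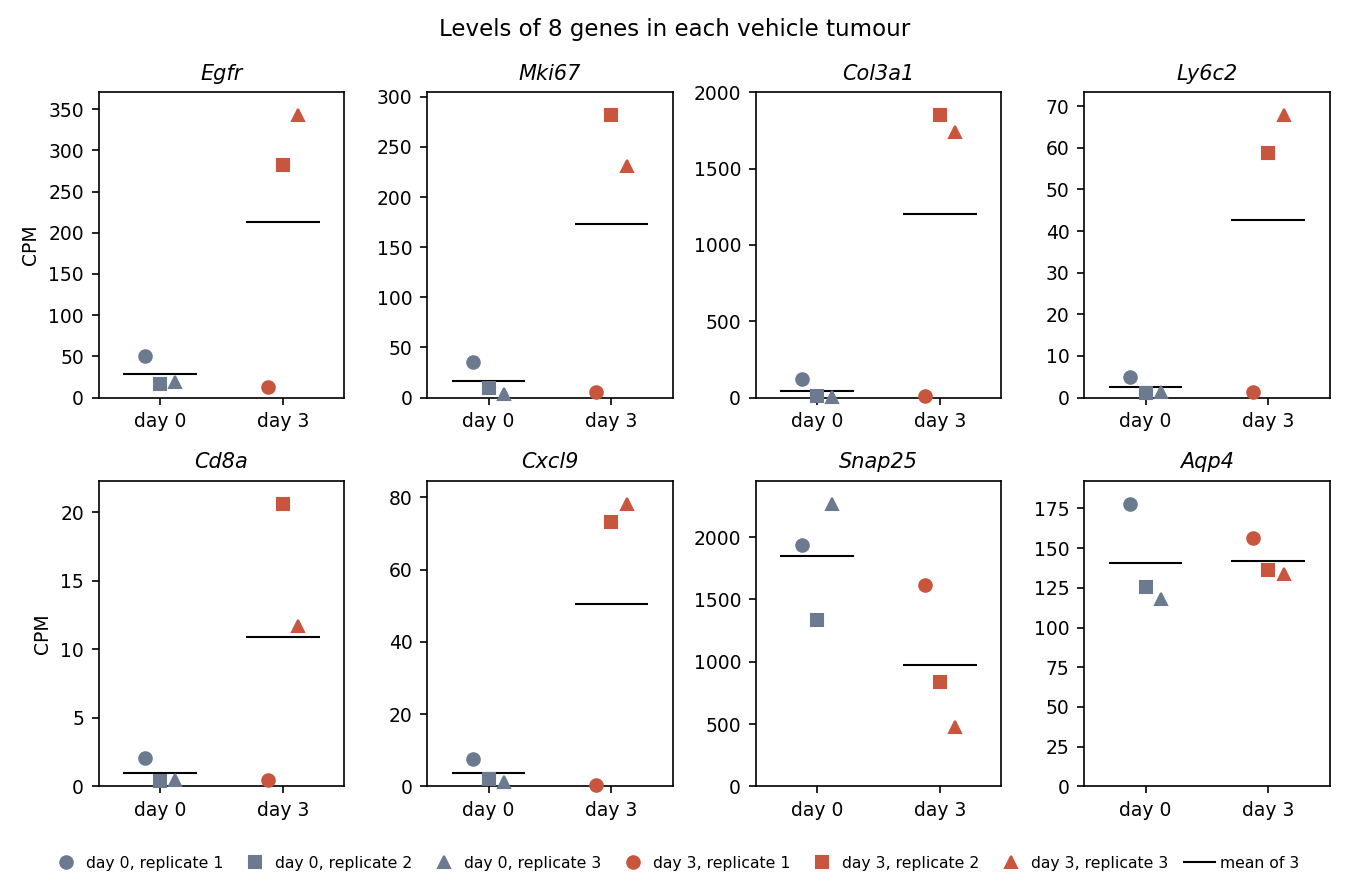
CPM (y axis, linear, from 0) of 8 genes in each vehicle tumour by day (x axis), with points for tumours and lines for the mean of 3. Egfr, Mki67, Col3a1, Ly6c2, Cd8a and Cxcl9 are high in day 3 replicates 2 and 3 and at the day 0 level or lower in replicate 1, Snap25 runs the other way, and Aqp4 lies between 118 and 178 CPM throughout.

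Glioma and mesenchymal genes had 16 of 16 positive members and a median of 2.92. Other cells of the unsorted tissue can also make them, and how much came from glioma cells was not tested. Without replicate 1, 13 passed (median 3.39), and the median was -0.34 without replicates 2 and 3. Nes, an intermediate filament of neural stem and glioma cells, stood at 31.5, 25.8 and 19.5 CPM at day 0 and at 20.3, 156 and 143 CPM at day 3. Cd44, the hyaluronan receptor, stood at 24.1, 7.65 and 5.25 CPM and then at 9.66, 201 and 220 CPM. Vim, a mesenchymal filament, stood at 298, 101 and 64.7 CPM and then at 80.1, 1824 and 1833 CPM. Replicates 2 and 3 lay above every day 0 tumour for all 3 genes, and replicate 1 lay inside their range.

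Targets of the EGFR and MAPK pathway did not follow one pattern. Of the 16 genes in that list 11 were positive, with a median of 0.22. Without replicate 1, 5 passed, all higher, against 24.1% of all genes called higher. Spry1, a feedback inhibitor of receptor tyrosine kinases, stood at 11.9, 7.16 and 7.36 CPM at day 0 and at 9.33, 86.3 and 86.4 CPM at day 3. Ccnd1, cyclin D1, stood at 106, 46.0 and 50.1 CPM and then at 49.1, 644 and 663 CPM. Dusp6, the ERK phosphatase, stood at 85.6, 43.5 and 104 CPM and then at 45.1, 113 and 104 CPM, and Etv5, an ERK-induced factor, stood at 137, 101 and 187 CPM and then at 75.4, 107 and 80.7 CPM. Both genes are also made by brain cells, and their groups overlapped (log2 fold changes 0.17 ± 0.53 and -0.69 ± 0.31, edgeR adjusted p = 0.84 and 0.15).

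Genes of the tumour matrix were also far higher in day 3 replicates 2 and 3. Col3a1, type III collagen (chromosome 1, 45311538 to 45349706), stood at 119, 13.3 and 5.20 CPM at day 0 and at 8.82, 1853 and 1740 CPM at day 3, a log2 fold change of 4.71 ± 1.77 (edgeR adjusted p = 0.11, and 5.28 with 0.018 without replicate 1). Col1a1, one chain of type I collagen, stood at 31.0, 24.9 and 31.6 CPM and then at 24.1, 211 and 226 CPM. Col1a2, the other chain of the same fibre, stood at 36.7, 40.7 and 46.1 CPM and then at 26.5, 38.4 and 30.7 CPM. So in replicates 2 and 3 the first chain lay above every day 0 tumour and its partner chain inside the day 0 range or under it. Col1a2 was the one gene of the 16 in the collagen and matrix list with a negative value. The list had a median of 2.58 (13 passed and 3.10 without replicate 1, -0.47 without replicates 2 and 3). Fbn1, the microfibril protein fibrillin, stood at 15.5, 8.27 and 9.35 CPM and then at 9.06, 228 and 210 CPM. Col4a1, of basement membranes, stood at 99.3, 54.7 and 63.3 CPM and then at 68.8, 469 and 446 CPM.

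Enzymes that cut the matrix included genes that were higher in every day 3 tumour. The matrix protease list had 14 of 14 positive members and a median of 2.55, with 12 passing without replicate 1 (median 3.05) and a median of 0.12 without replicates 2 and 3. Mmp14, a membrane-bound protease, stood at 32.9, 16.4 and 14.7 CPM at day 0 and at 19.7, 213 and 214 CPM at day 3. Mmp12, the macrophage elastase (chromosome 9, 7344381 to 7369499), stood at 0.402, 0.19 and 0.265 CPM and then at 9.03, 2.29 and 4.16 CPM. Here replicate 1 was the highest of all 6, and the groups did not overlap (log2 fold change 4.15 ± 1.16, edgeR adjusted p = 0.11, and 3.46 with 0.027 without replicate 1). Plau, urokinase, stood at 4.97, 2.66 and 2.03 CPM and then at 7.08, 30.4 and 27.2 CPM. Spp1, osteopontin, a secreted protein of glioma cells and macrophages, stood at 38.2, 28.3 and 7.80 CPM and then at 91.2, 389 and 391 CPM. It too was above all day 0 tumours in each day 3 tumour. Mmp3 had 3 counts in the day 0 group and 38 in the day 3 group, a ratio of 10.9 with an exact 95% interval of 3.45 to 55.1 that covers counting error only.

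Interferon-stimulated genes were high in the same tumours. All 18 genes of the type I interferon list were positive, with a median of 2.58. All 18 passed without replicate 1, at a median of 3.04. Without replicates 2 and 3 the median was 0.20, with 15 of 18 positive. Ifit1, which binds foreign RNA, stood at 22.0, 26.3 and 6.70 CPM at day 0 and at 27.0, 131 and 154 CPM at day 3. Isg15, a ubiquitin-like modifier, stood at 21.5, 17.6 and 3.92 CPM and then at 18.6, 145 and 151 CPM. Bst2, tetherin, stood at 47.8, 28.9 and 9.65 CPM and then at 24.1, 376 and 470 CPM. Day 0 replicate 3 was the lowest of the 6 for each of these genes. The list averaged 2.31 log2 CPM in that tumour, below the range of the 18 treated tumours (3.40 to 7.31).

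Many such promoters carry the interferon-stimulated response element, to which the ISGF3 complex and interferon regulatory factors bind. The 250 bases before the start of Ifit1 (chr19:34640639-34640888, plus strand) and Isg15 (chr4:156200819-156201068, minus strand) are shown in the same way, since these genes come first in the list as written. Capitals mark the element as searched, 2 copies of GAAA parted by 2 letters of any kind, on either strand (TTTC on the other). Only genes with a match in this window could be shown.
Ifit1: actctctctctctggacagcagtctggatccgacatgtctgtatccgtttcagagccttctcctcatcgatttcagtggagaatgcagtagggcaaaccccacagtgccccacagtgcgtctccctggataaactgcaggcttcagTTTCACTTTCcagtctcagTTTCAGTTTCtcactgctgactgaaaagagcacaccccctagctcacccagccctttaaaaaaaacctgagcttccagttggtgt
Isg15: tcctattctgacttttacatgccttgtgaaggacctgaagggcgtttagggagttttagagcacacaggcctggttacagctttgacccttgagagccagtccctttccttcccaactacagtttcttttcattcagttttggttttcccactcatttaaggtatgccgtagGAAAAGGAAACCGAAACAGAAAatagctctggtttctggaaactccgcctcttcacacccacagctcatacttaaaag

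Ifit1 held 2 matches and Isg15 held 3 that overlap. The motif lay in 9 of 16 promoters of the type I interferon list (56.25%) and 9 of 15 of the interferon-gamma list (60.0%), against 3.44% of all promoters. In MHC class I promoters it lay in 3 of 13 (23.08%). These came from 15, 13 and 12 genes with an entry.

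Ifng itself, the cytokine of activated T and NK cells, stood at 0.118, 0.0271 and 0 CPM at day 0 and at 0.0543, 2.26 and 3.21 CPM at day 3 (log2 fold change 4.97 ± 1.30, edgeR adjusted p = 0.11, and 0.0085 without replicate 1). Of the 19 genes of the interferon-gamma list all were positive, and 18 passed without replicate 1. Their median was 2.59, with 3.10 without replicate 1 and -0.36 without replicates 2 and 3. Cxcl9, a T cell attractant, stood at 7.69, 2.01 and 1.19 CPM and then at 0.271, 73.2 and 78.3 CPM. Cxcl10, another ligand of CXCR3, stood at 19.5, 19.4 and 1.72 CPM and then at 14.8, 179 and 210 CPM. Gbp4, a guanylate-binding protein, stood at 16.3, 8.16 and 4.45 CPM and then at 6.76, 158 and 195 CPM. For Cxcl9, replicate 1 of day 3 was the lowest of the 6 tumours.

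Antigen presentation genes gave the same order. The MHC class I list had 14 of 14 positive members and a median of 2.57 (14 passed and 3.09 without replicate 1, -0.58 without replicates 2 and 3). H2-K1, a classical class I heavy chain, stood at 340, 183 and 105 CPM at day 0 and at 111, 2116 and 2174 CPM at day 3. B2m, its light chain, stood at 407, 220 and 166 CPM and then at 169, 1710 and 1646 CPM. Tap1, which pumps peptides to them, stood at 45.1, 25.8 and 10.2 CPM and then at 18.8, 258 and 267 CPM. In class II, 9 of 9 genes were positive with a median of 2.48, and 7 passed without replicate 1. Cd74, the invariant chain, stood at 95.2, 75.8 and 61.5 CPM and then at 24.2, 867 and 713 CPM. Replicate 1 was below every day 0 tumour for Cd74, H2-Aa, H2-Ab1 and H2-Eb1, at 9.41 to 10.2 CPM for the last 3 genes against 15.0 to 38.1 CPM at day 0. Reads of H2 genes can be split between near-identical copies, so their single values are uncertain.

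RNA of leukocytes was higher in day 3 replicates 2 and 3. Ptprc, which encodes CD45 on all leukocytes, stood at 42.2, 12 and 7.32 CPM at day 0 and at 12.6, 135 and 109 CPM at day 3 (log2 fold change 2.06, edgeR adjusted p = 0.12, and 2.57 with 0.016 without replicate 1). Of the 18 T cell genes 17 were positive, with a median of 2.26. Without replicate 1, 16 passed (median 2.78), and the median was -0.31 without replicates 2 and 3. Cd3e, part of the T cell receptor complex, stood at 1.21, 0.298 and 0.176 CPM and then at 0.624, 6.44 and 4.75 CPM. Cd8a, of cytotoxic T cells, stood at 2.06, 0.380 and 0.441 CPM and then at 0.434, 20.6 and 11.7 CPM. Cd4 did not follow, at 14.1, 22.0 and 0.970 CPM and then at 20.0, 7.84 and 9.02 CPM. In the 6 tumours its order was that of Drd1, a receptor of striatal neurons, at 65.9, 122 and 6.61 CPM and then 102, 7.56 and 42.7 CPM. How much of the Cd4 signal came from T cells was not tested.

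Cytotoxic genes had the second highest list median after mitosis, at 3.36. All 16 were positive, and 14 passed without replicate 1 (median 3.90, and -0.66 without replicates 2 and 3). Gzmb, granzyme B, stood at 2.84, 0.705 and 0.617 CPM at day 0 and at 0.271, 29.0 and 30.8 CPM at day 3. Prf1, perforin, stood at 0.686, 0.271 and 0.0882 CPM and then at 0.244, 6.63 and 7.68 CPM. Klre1, an NK cell receptor, stood at 0.355, 0.0814 and 0.0441 CPM and then at 0.217, 3.03 and 3.01 CPM. Checkpoint and regulatory T cell genes were 13 of 14 positive with a median of 1.77 (2.23 with 13 higher and 1 lower without replicate 1). Pdcd1, which encodes PD-1, stood at 1.09, 0.434 and 0.309 CPM and then at 0.298, 8.29 and 5.40 CPM. Foxp3, of regulatory T cells, stood at 1.47, 0.651 and 0.617 CPM and then at 0.733, 3.99 and 2.80 CPM. Tox, the gene below 0, is also made by neurons and stood at 18.9, 15.3 and 36.7 CPM and then at 13.4, 9.48 and 5.55 CPM.

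Plasma cell genes were highest in day 3 replicate 2. Igkc, the kappa constant region, stood at 3.71, 1.74 and 0.970 CPM at day 0 and at 3.64, 227 and 31.0 CPM at day 3. Jchain, which joins secreted antibodies, stood at 1.18, 1.11 and 1.5 CPM and then at 1.55, 53.4 and 6.89 CPM. Mzb1, of the plasma cell secretory path, stood at 0.189, 0.136 and 0.132 CPM and then at 0.217, 10.1 and 1.59 CPM. The B cell and plasma cell list had 12 of 12 positive members and a median of 2.79, with 6 passing without replicate 1 (3.34) and a median of -0.19 without replicates 2 and 3. Ms4a1, which encodes the B cell surface protein CD20, had 3 counts in the day 0 group and 74 in the day 3 group, a ratio of 21.2 with an exact 95% interval of 6.97 to 105.

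Most monocyte and macrophage genes were higher in day 3 replicates 2 and 3, while resident microglia genes differed less and were split. Ly6c2, of inflammatory monocytes, stood at 4.97, 1.11 and 1.28 CPM at day 0 and at 1.22, 58.8 and 68.0 CPM at day 3. Ccr2, their homing receptor, stood at 6.48, 2.2 and 1.15 CPM and then at 1.84, 49.9 and 48.4 CPM. Plac8 stood at 3.10, 1.44 and 0.441 CPM and then at 1.38, 41.6 and 40.3 CPM. The monocyte and macrophage list had 15 of 15 positive members and a median of 2.06 (11 passed and 2.54 without replicate 1, -0.35 without replicates 2 and 3). Adgre1, the macrophage marker F4/80, stood at 72.0, 15.0 and 10.2 CPM and then at 14.5, 80.1 and 63.1 CPM. Day 0 replicates 1 and 2 lay inside its day 3 range. The log2 fold change of Adgre1 was 0.70 ± 0.74 (edgeR adjusted p = 0.51, and 0.22 without replicate 1).

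The microglia list averaged 5.35, 4.96 and 4.72 log2 CPM at day 0 and 5.18, 5.39 and 5.14 at day 3. Its median log2 fold change was 0.23, with 7 of 12 positive. Without replicate 1, 2 passed (Tmem119 and Olfml3), no larger a share than the 24.1% of all genes called higher. P2ry12, a receptor of resting microglia, stood at 32.8, 22.6 and 28.0 CPM and then at 28.1, 21.8 and 15.3 CPM. Sall1, a factor of microglial identity, stood at 47.3, 31.8 and 25.3 CPM and then at 28.7, 36.0 and 35.0 CPM. Tmem119 stood at 55.6, 46.2 and 31.2 CPM and then at 36.0, 87.0 and 76.9 CPM. On the log2 scale the microglia list minus the monocyte and macrophage list was 1.29, 2.34 and 2.85 at day 0 and 2.36, -0.53 and -0.62 at day 3. The means, 2.16 at day 0 and 0.41 at day 3, differed with a two-sided exact permutation p = 0.3 (0.75 adjusted over 21 ratios, 0.1 being the smallest p that 3 against 3 can give), and no ratio of the 21 passed.

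Some leukocyte lists were also set against Ptprc. On the log2 scale against Ptprc, the T cell list averaged -3.82 ± 0.39 at day 0 and -3.97 ± 0.24 at day 3 (SD, n = 3, exact permutation p = 0.8). The monocyte and macrophage list averaged -1.10 ± 0.20 and -1.01 ± 0.16 (exact permutation p = 0.7). The cytotoxic and NK list averaged -5.40 ± 0.36 and -5.01 ± 0.42 (exact permutation p = 0.3). These 3 ratios overlapped between days. Other lists differed more from day 0 to day 3 against Ptprc, by -1.66 for microglia, -1.12 for alternative macrophages, -1.0 for neutrophils and -0.78 for dendritic cells (exact permutation p = 0.2 to 0.3). With 0.1 as the smallest p, 3 tumours a side cannot show whether any of these ratios changed or stayed alike.

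Dendritic cell and alternative macrophage genes split within their lists. Xcr1, of cross-presenting dendritic cells, stood at 0.686, 0.0814 and 0.0441 CPM at day 0 and at 0.109, 2.61 and 2.96 CPM at day 3. Cd40, the receptor that aCD40 engages in the treated groups, stood at 1.54, 1.19 and 0.970 CPM and then at 0.922, 12.3 and 10.7 CPM. Flt3, which the brain also transcribes, stood at 10.1, 5.37 and 8.29 CPM and then at 8.76, 6.89 and 5.52 CPM. Of the 15 dendritic cell genes 12 were positive, with a median of 1.39 and 10 passing without replicate 1 (1.80). Arg1, an arginine-degrading enzyme of suppressive macrophages, stood at 0.662, 0.298 and 0.176 CPM and then at 0.733, 8.05 and 3.21 CPM. Cd163, of perivascular macrophages, ran the other way at 4.68, 9.49 and 5.07 CPM and then 4.56, 0.607 and 1.82 CPM. Of 15 alternative macrophage genes 14 were tested, with a median of 0.77. Without replicate 1 (1.02), 2 were called higher and 1 lower, no larger a share than the 24.1% and 17.1% of all genes.

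Of the 12 neutrophil genes tested, 8 stood below 1 CPM in every vehicle tumour. S100a8 stood at 0.0473, 0.217 and 0.176 CPM at day 0 and at 0.0814, 0.327 and 0.154 CPM at day 3, and S100a9 at 0.142, 0.353 and 0.353 CPM and then at 0.136, 0.257 and 0.0257 CPM. Both calprotectin genes overlapped between days. Trem1 stood at 0.0946, 0.0271 and 0.0882 CPM and then at 0, 2.45 and 2.49 CPM, and monocytes express it too. Mmp9, a gelatinase that is also in the matrix protease list, stood at 2.60, 1.17 and 1.45 CPM and then at 1.47, 13.6 and 15.2 CPM. Trem1 and Mmp9 were the 2 genes of the 12 that passed without replicate 1 (edgeR adjusted p = 0.020 and 0.010). This is no larger a share than the 24.1% of all genes called higher. Csf3r and Lcn2 stood above 1 CPM in every tumour and overlapped between days. Of 14 listed genes 12 were tested, 9 were positive and the median was 0.61 (0.85 without replicate 1). Among myeloid chemokines, Ccl2 stood at 4.50, 2.01 and 0.265 CPM and then at 2.96, 28.1 and 28.2 CPM, and Ccl7 at 1.02, 1.84 and 0.265 CPM and then at 1.44, 20.4 and 25.9 CPM. Both attract monocytes through CCR2. Cxcl1, which attracts neutrophils, stood at 0.379, 0.217 and 0.176 CPM and then at 0.136, 0.28 and 0.0771 CPM. Cxcl2, of the same kind, had 3 counts at day 0 and 24 at day 3 (ratio 6.87, exact 95% interval 2.09 to 35.6).

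Complement genes were positive in 13 of 14 cases, with a median of 1.30 and 7 passing without replicate 1 (1.67). C1qa, which starts the classical pathway and is made by microglia and macrophages, stood at 183, 134 and 79.8 CPM at day 0 and at 135, 458 and 433 CPM at day 3. C3, the central component, stood at 51.4, 17.7 and 8.20 CPM and then at 10.7, 129 and 95.5 CPM. Both were above every day 0 tumour in replicates 2 and 3 and within the day 0 range in replicate 1.

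**Figure D3:**
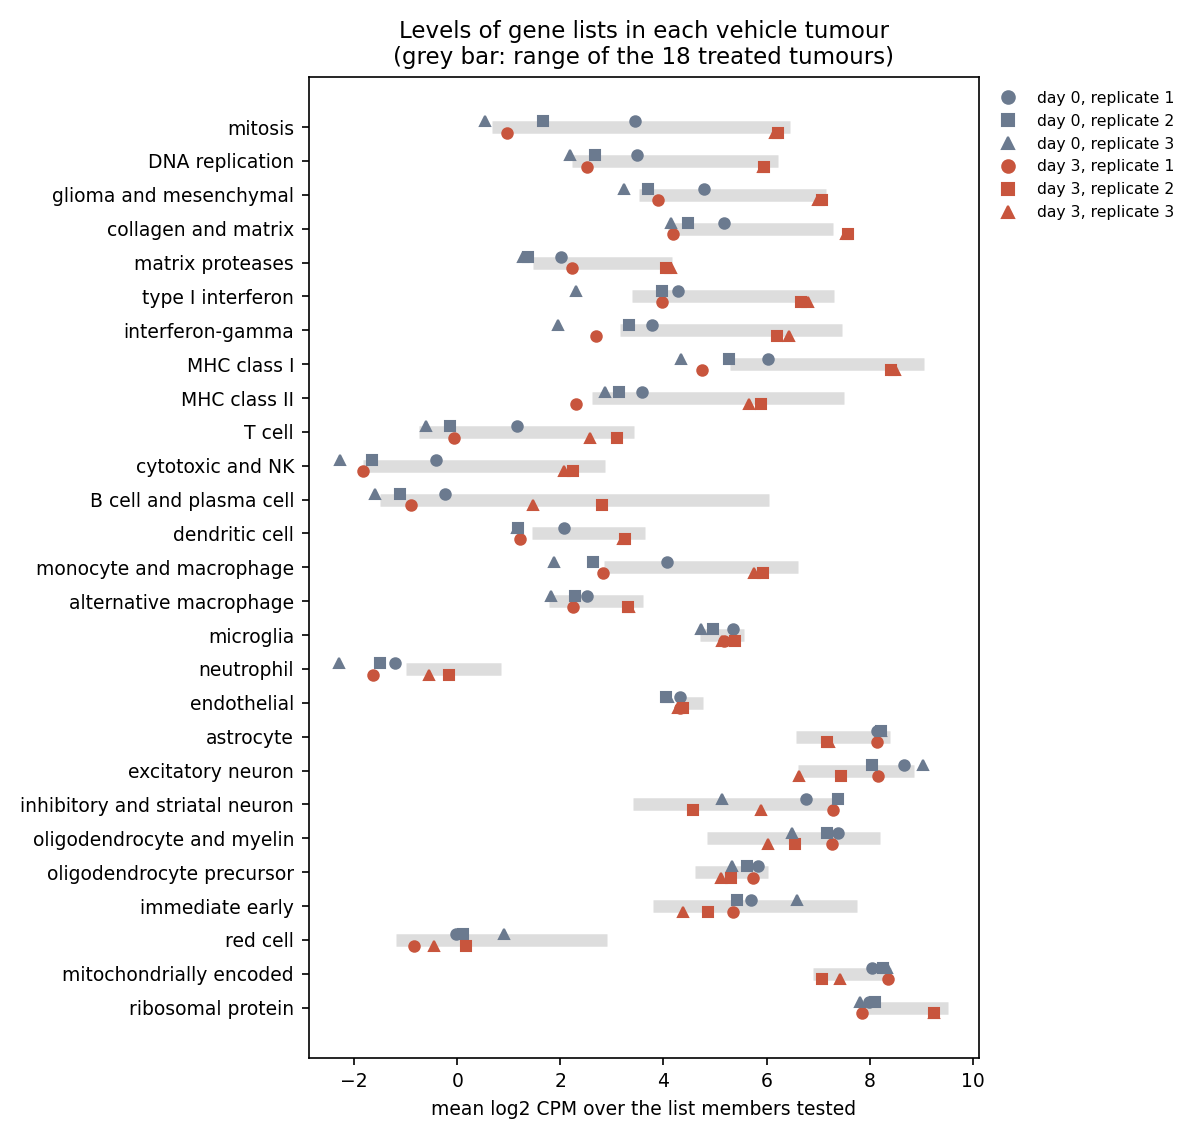
Mean log2 CPM (x axis) of 27 gene lists (y axis) in each vehicle tumour, with grey bars for the range of the 18 treated tumours. For the mitosis list day 3 replicates 2 and 3 lie at 6.22 and 6.16 and replicate 1 at 0.96, while the microglia list lies between 4.72 and 5.39 in all 6 tumours.

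Most excitatory neuron genes were lower in day 3 replicates 2 and 3. The excitatory neuron list had 0 of 15 positive members and a median of -0.94, with 10 called lower without replicate 1 (-1.55), and -0.19 without replicates 2 and 3. Snap25, of the synaptic vesicle fusion machinery, stood at 1934, 1335 and 2269 CPM at day 0 and at 1614, 839 and 474 CPM at day 3. Gria2, an AMPA receptor subunit, stood at 671, 687 and 793 CPM and then at 651, 213 and 214 CPM. Replicates 2 and 3 lay below every day 0 tumour for both genes, and replicate 1 lay inside the Snap25 range and just under that of Gria2. Striatal and inhibitory neuron genes varied within day 0 already: the list averaged 6.77, 7.39 and 5.14 log2 CPM at day 0. At day 3 it averaged 7.29, 4.57 and 5.89. Its median was -0.34. Without replicate 1 the median was -1.31, with 1 of 15 genes called lower, against 17.1% of all genes.

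Within the astrocyte list, some genes were lower in day 3 replicates 2 and 3 and others were level across the tumours. Slc1a2, the main glutamate transporter, stood at 2223, 1814 and 2662 CPM at day 0 and at 2037, 765 and 645 CPM at day 3. Glul, glutamine synthetase, stood at 1499, 1550 and 1814 CPM and then at 1188, 563 and 509 CPM, with no overlap between days. Aqp4, the water channel of astrocyte endfeet, stood at 178, 126 and 118 CPM and then at 156, 136 and 133 CPM. Of its gap junction genes, Gja1, connexin 43, stood at 177, 157 and 168 CPM and then at 172, 152 and 167 CPM, and Gjb6, connexin 30, stood at 46.8, 61.8 and 78.0 CPM and then at 41.7, 21.4 and 21.2 CPM. Gjb6 thus went with Slc1a2 and Glul (log2 fold change -1.15 ± 0.48, edgeR adjusted p = 0.13, and 0.031 without replicate 1). The log2 fold changes of Slc1a2 and Glul were -0.96 ± 0.47 and -1.10 ± 0.40 (edgeR adjusted p = 0.17 and 0.11, and 0.013 and 0.011 without replicate 1), and those of Aqp4 and Gja1 were 0.01 ± 0.28 and -0.04 ± 0.31. The list as a whole had 1 of 12 positive and a median of -0.62, with 7 called lower without replicate 1 (-1.14). Gfap, of reactive astrocytes, stood at 1130, 889 and 425 CPM and then at 791, 1269 and 1198 CPM.

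Myelin genes had a negative median without reaching a call. Of the 12 genes 1 was positive, the median was -0.42, and 0 passed with or without replicate 1 (-0.88). With all 6 tumours, 0 had an unadjusted edgeR p under 0.05. Without replicates 2 and 3 the median was 0.17, with 10 of 12 positive. The list averaged 7.4, 7.18 and 6.49 log2 CPM at day 0 and 7.26, 6.56 and 6.02 at day 3. Only day 3 replicate 3 thus lay below the day 0 range of the list. Mbp, myelin basic protein, stood at 2271, 1821 and 1247 CPM at day 0 and at 1855, 1111 and 649 CPM at day 3. In the precursor list, Olig2 stood at 36.6, 44.9 and 29.4 CPM and then at 38.5, 20.5 and 21.7 CPM. Pdgfra and Cspg4, which pericytes, fibroblasts and glioma cells also express, were higher in replicates 2 and 3, at 57.8, 136 and 131 CPM and 28.4, 74.7 and 80.4 CPM at day 3 against 50.6 to 56.1 and 25.0 to 34.4 CPM at day 0.

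Activity-induced genes of neurons were mostly lower at day 3. In the immediate early list 2 of 12 genes were positive and the median was -1.36. Without replicate 1 the median was -1.79, with 1 called higher and 3 lower, against 24.1% and 17.1% of all genes. In all 3 day 3 tumours 4 of the 12 were lower than in any day 0 tumour, against 6.65% of all genes. Arc stood at 234, 148 and 464 CPM at day 0 and at 106, 106 and 20.2 CPM at day 3, with no overlap. Nr4a3 stood at 52.1, 38.4 and 71.2 CPM and then at 24.4, 12.6 and 7.99 CPM, also with no overlap (log2 fold change -1.85 ± 0.61, edgeR adjusted p = 0.11, and 0.015 without replicate 1). Fos stood at 31.4, 34.2 and 64.8 CPM and then at 39.7, 25.0 and 25.0 CPM, where replicate 1 lay inside the day 0 range. Day 0 replicate 3 was the highest for all 3 genes.

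Vessel genes lay within narrow ranges, and a few had no overlap between days. Kdr, the main VEGF receptor, stood at 18.1, 14.2 and 12.7 CPM at day 0 and at 22.9, 30.8 and 32.9 CPM at day 3 (log2 fold change 0.94 ± 0.22, edgeR adjusted p = 0.11, and 0.0085 without replicate 1). Angpt2, released by remodelling vessels, stood at 1.73, 1.46 and 1.28 CPM and then at 2.98, 4.83 and 3.52 CPM. Cldn5, of the blood-brain barrier, stood at 47.7, 36.4 and 39.1 CPM and then at 52.9, 50.4 and 51.9 CPM. The endothelial list had a median of 0.22. In all day 3 tumours 4 of its 15 genes were higher and 1 lower, against 6.49% and 6.65% of all genes. Without replicate 1, 3 were called higher and 2 lower, no larger a share than the 24.1% and 17.1% of all genes. Slc2a1, the glucose transporter of barrier vessels, stood at 149, 124 and 134 CPM and then at 96.5, 84.1 and 72.2 CPM, with no overlap (-0.68 ± 0.17, edgeR adjusted p = 0.11, and 0.0085 without replicate 1). Vegfa stood at 92.2, 75.0 and 91.1 CPM and then at 89.0, 86.5 and 83.2 CPM. The hypoxia and glycolysis list had a median of 0.14. Without replicate 1, 1 of its 16 genes was called higher and 3 lower, against 24.1% and 17.1% of all genes.

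Among housekeeping genes, ribosomal protein genes were higher and mitochondrially encoded genes lower in replicates 2 and 3. Rplp0 stood at 338, 240 and 185 CPM at day 0 and at 199, 1629 and 1611 CPM at day 3, and Rpl3 at 431, 578 and 450 CPM and then at 472, 664 and 688 CPM. All 15 ribosomal protein genes were positive with a median of 0.86, and 14 passed without replicate 1 (1.16). Mitochondrial transcripts took 2.69%, 3.24% and 3.18% of counts at day 0 and 3.29%, 1.56% and 1.90% at day 3. Their list had a median of -0.50 (8 of 9 called lower without replicate 1). Both families have near-identical copies elsewhere in the genome, so single values may hold misplaced reads. Of 8 red cell genes 2 were positive and 0 passed (5 at an unadjusted p under 0.05, 3 called lower by DESeq2). Hba-a1 stood at 7.64, 11.9 and 32.6 CPM and then at 3.58, 7.91 and 5.42 CPM. The list averaged -0.03, 0.11 and 0.92 log2 CPM at day 0 and -0.85, 0.17 and -0.44 at day 3, so the days overlapped and day 0 replicate 3 was the highest. The red cell median was -1.19, with -0.99 without replicate 1 and -2.12 without replicates 2 and 3.

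**Figure D4:**
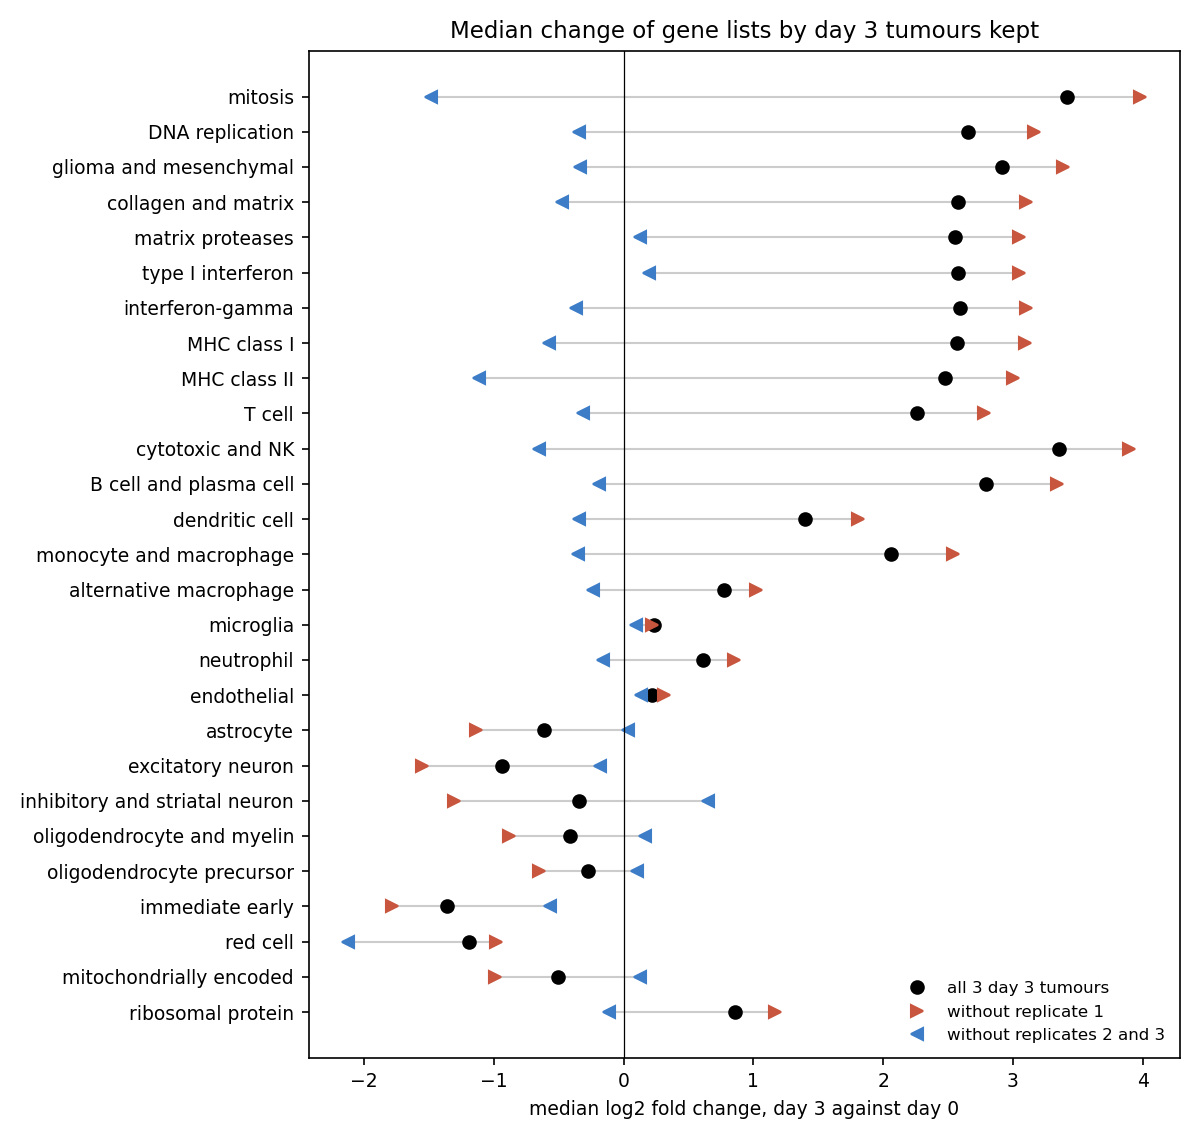
Median log2 fold change from day 0 to day 3 (x axis) of 27 gene lists (y axis), with all 3 day 3 tumours (black), without replicate 1 (red) and without replicates 2 and 3 (blue). The mitosis median goes from 3.42 to 3.98 without replicate 1 and to -1.48 without replicates 2 and 3, while the red cell median stays below 0 in each case.

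Of the genes with no overlap between days, the 5 with the smallest p in each direction are given next. Replicate 1 lies outside the day 0 range in each by this choice, and none passed (edgeR adjusted p = 0.108 for each). Pcdh12, a protocadherin of endothelial cells (chromosome 18, 38267089 to 38284402), stood at 0.379, 0.271 and 0.132 CPM at day 0 and at 1.17, 2.85 and 2.29 CPM at day 3 (log2 fold change 2.95 ± 0.54). B3gnt9, a glycosyltransferase (chromosome 8, 105252638 to 105255153), stood at 2.89, 2.33 and 2.25 CPM and then at 4.94, 16.1 and 14.9 CPM (2.26 ± 0.44). Mmp13, a collagenase, stood at 0.0946, 0.0814 and 0.132 CPM and then at 0.298, 1.45 and 1.67 CPM (3.47 ± 0.67). Parn, a deadenylase that trims RNA tails, had the smallest difference of the 5, at 21.9, 21.9 and 20.5 CPM and then 27.9, 35.4 and 32.0 CPM (0.57 ± 0.12). Igkv3-7, an immunoglobulin kappa variable segment, had 0 counts in the day 0 group and 1347 in the day 3 group, at least 385-fold higher against a floor of 3 counts over the group. Of its 3 day 3 values, 0.136, 28.1 and 3.57 CPM, replicate 2 held most. Such segments are nearly alike, so its reads could belong to other segments.

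Of the lower genes, Hif3a, a hypoxia-inducible factor subunit (chromosome 7, 17031507 to 17062427), stood at 7.57, 9.06 and 13 CPM at day 0 and at 2.36, 1.52 and 1.57 CPM at day 3 (-2.44 ± 0.52). Plin4, a lipid droplet protein (chromosome 17, 56100591 to 56109803), stood at 7.26, 7.89 and 8.86 CPM and then at 2.41, 1.66 and 1.59 CPM (-2.08 ± 0.46). Cdh19, a cadherin of glia (chromosome 1, 110888326 to 110977584), stood at 11.7, 10.9 and 14.3 CPM and then at 4.80, 4.06 and 3.39 CPM (-1.59 ± 0.35). In these 3 genes replicate 1 lay close to the other day 3 tumours. Per2, a repressor of the circadian clock (chromosome 1, 91415982 to 91459324), stood at 78.9, 62.4 and 97.9 CPM and then at 44.9, 17.6 and 19.5 CPM (-1.54 ± 0.35). Trpc6, a calcium-permeable channel, stood at 7.55, 5.61 and 17.8 CPM and then at 2.98, 2.31 and 0.874 CPM (-2.32 ± 0.55). All 10 genes were selected for not overlapping, which 6.49% of genes did upward and 6.65% downward, so their lack of overlap is a description.

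**Figure D5:**
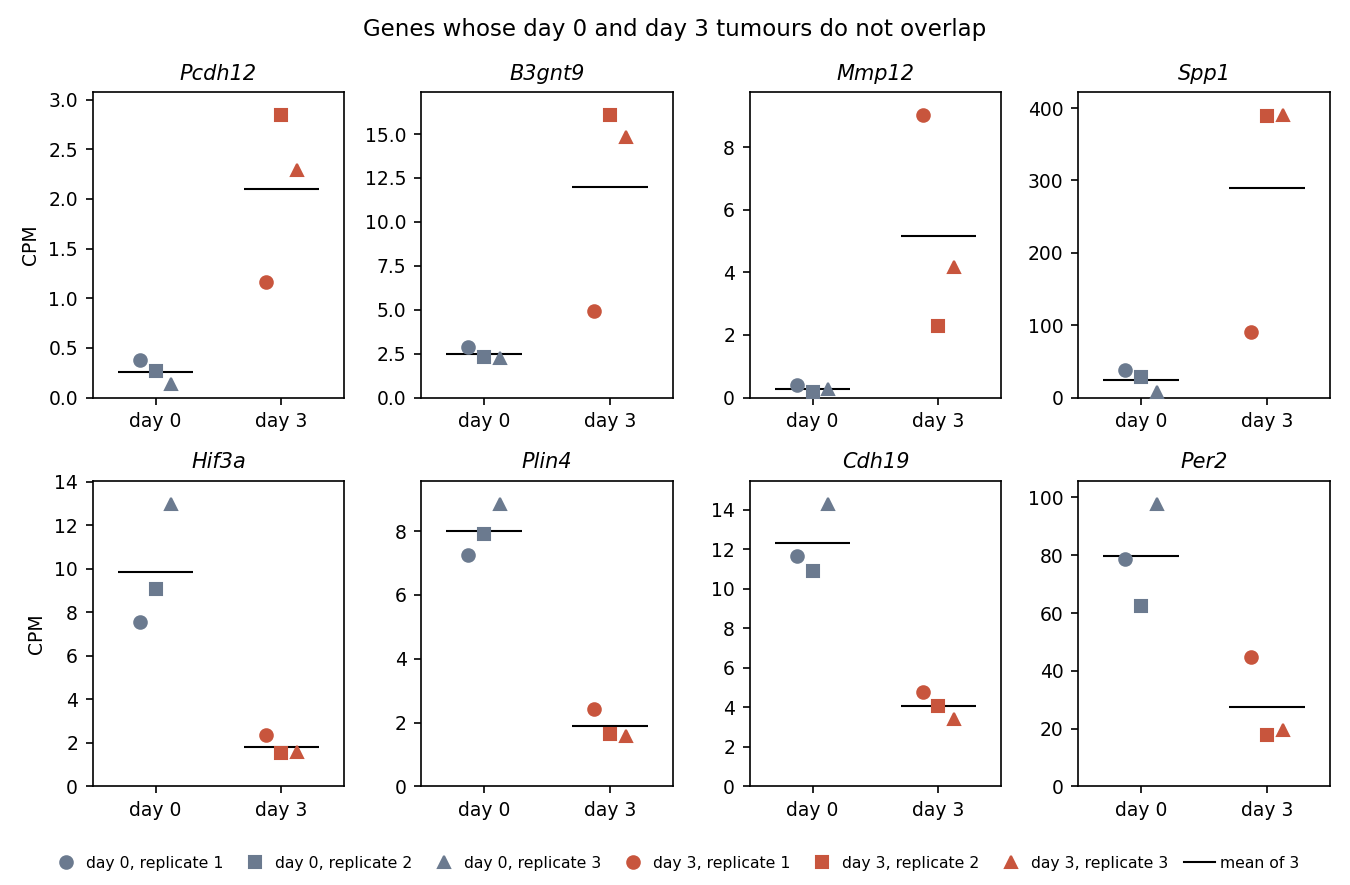
CPM (y axis, linear, from 0) of 8 genes selected for having no overlap between days (x axis), with points for tumours and lines for the mean of 3. Hif3a, Plin4 and Cdh19 lie at 1.52 to 4.80 CPM in all 3 day 3 tumours against 7.26 to 14.3 CPM at day 0, and Mmp12 is highest in day 3 replicate 1.

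Whether the change over 3 days was particular to vehicle was tested as a difference of changes, which shares no tumour between its sides. Against aCD40, D2C7-IT and D2C7-IT+aCD40, edgeR called 0 genes each (0.0%), with smallest adjusted p of 0.0579, 0.276 and 0.193. At an unadjusted p under 0.05 there were 272 (1.22%), 3914 (17.6%) and 1793 genes (8.05%), and DESeq2 called 7 (0.0314%), 92 (0.413%) and 10 (0.0449%). Without vehicle day 3 replicate 1, edgeR called 0, 3703 (16.1%) and 0 genes, those against D2C7-IT being 2401 with a higher change in vehicle (10.4%) and 1302 with a lower one (5.67%). The median change of the mitosis list was 3.42 for vehicle and 2.63 after aCD40, against -0.63 after D2C7-IT and 0.42 after the combination. The type I interferon list had medians of 2.58, 1.54, -1.37 and 0.39 in the same order, and the excitatory neuron list -0.94, -0.69, 0.29 and -0.41. The aCD40 day 3 tumours were not alike either. On the first principal component of all 24 libraries they lay at 216, -10.2 and -33.95, and the vehicle day 3 tumours at -58.8, 167 and 153. How far the aCD40 medians rest on aCD40 day 3 replicate 1 was not tested. For Egfr the vehicle change exceeded that after D2C7-IT by 3.53 ± 1.38 on the log2 scale (edgeR adjusted p = 0.28, and 0.041 without vehicle replicate 1). For Ifit1 the excess was 4.06 ± 1.17 (adjusted p = 0.28 in edgeR, and 0.041 without that tumour). Without it, 10 of 20 mitosis genes and 18 of 18 type I interferon genes passed against D2C7-IT, and 0 in each list against aCD40 or the combination.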

How the data were processed

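Polyadenylated RNA of unsorted, flash-frozen tumour tissue was sequenced from NEBNext Ultra libraries, a kit that does not mark strand, per the labels' protocols. The authors deposited raw counts per gene as whole numbers, in 6 tables of 49315 genes. STAR 2.5.2b, featureCounts of Subread 1.5.2, Trimmomatic 0.36, bcl2fastq 2.17 and the GRCm38 build are listed in the submitters' processing notes. For the annotation and the use of strand, the sources used here name nothing. Reads of overlapping genes on opposite strands therefore cannot be told apart. The tables hold 36 columns, 12 of which repeat another and differ in 0 cases. Symbols (49056 genes) and positions came from GENCODE M21.

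Counts were tested in R 4.3.3 with edgeR 4.0.16: filterByExpr, TMM, 1 mean per group over all 24 libraries, the robust quasi-likelihood F test (16 residual degrees of freedom, biological coefficient of variation 0.412 in common) and Benjamini-Hochberg adjustment over the 22280 genes tested, called under 0.05. The spread is thus pooled over 8 groups. Calls "without" a tumour refit everything else. DESeq2 1.42.0 was the alternative test, and 2730 genes had no adjusted p there. Mean log2 CPM used a prior count of 2. On simulated counts with dispersion 0.05, lower than the real spread, the test recovered 36% and 52% of genes changed by -1 and 1 (log2) and 96% and 98% of those changed by -2 and 2, with 8 false calls among 21612 genes.

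The comparison, the 39 gene lists (530 genes, 525 tested) and the motifs were chosen with earlier results of these data known. Lists are described by counts and medians and were not tested. Lists share some genes. One member of a list is not reported here. Named genes follow one rule: up to 10 called genes in each direction, or, with fewer than 5 called, the 5 of smallest p with at least 1 CPM in the higher group, no overlap and a plain symbol, then the first 4 members of each list, up to 3 further members of smallest p, and Egfr. Ptprc and the genes of the closing observations were chosen after their values were seen. Promoter sequences are RefSeq's (GRCm38.p6). The bound and ratios at low counts use a floor of 3 counts over the group and exact 95% intervals.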

Additional observations from a re-analysis of the deposited data

How the results depend on the processing

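Which day 3 tumours were kept decided the outcome. Leaving out 1 tumour at a time gave 0 to 5528 genes higher and 0 to 3923 lower, all calls coming from the fit without vehicle day 3 replicate 1. For the difference from D2C7-IT the same range was 0 to 2401 higher and 0 to 1302 lower, from that fit again, and for the differences from aCD40 and from the combination it was 0 to 4 and 0 to 3 lower, from the fit without day 0 replicate 1. DESeq2 called 2233 genes higher and 246 lower in the main comparison. For the differences it called 1 higher and 6 lower (aCD40), 73 and 19 (D2C7-IT), and 1 and 9 (combination). Only the 6 vehicle libraries (19580 genes), RLE size factors, library totals, no filter on low counts, and leaving out replicates 2 and 3 together (added after the data were seen) each gave 0 and 0 in the main comparison. Library totals alone moved the median of all genes to 0.08, and no list median changed sign under any of the scalings. The cause of these differences between settings was not tested.

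Deviations of same-numbered tumours from their group means correlated at -0.544, -0.422 and -0.387, the lowest value for each. Replicate numbers thus gave no sign of a pairing. Deviations within a group of 3 sum to 0, so these values depend on each other and cannot exclude a pairing. With the replicate number as a block, 0 genes were called higher and 0 lower in the main comparison, 3 lower against aCD40 and 1 lower against the combination.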

Other observations

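Several genes that glucocorticoids induce were lower in all 3 day 3 tumours, replicate 1 included. Besides Hif3a and Plin4, Zbtb16, a transcriptional repressor, stood at 32.5, 18 and 77.9 CPM at day 0 and at 10.2, 13.9 and 3.16 CPM at day 3. Tsc22d3, which encodes GILZ, stood at 72.8, 106 and 95.3 CPM and then at 55.5, 60.5 and 46.6 CPM. Klf9 stood at 231, 205 and 234 CPM and then at 159, 87.6 and 67.1 CPM. Other genes of this kind did not follow: Fkbp5 stood at 54.3, 66.3 and 54.6 CPM and then at 43.7, 73.9 and 75.1 CPM, and Sgk1 at 107, 118 and 98.8 CPM and then at 72.7, 130 and 118 CPM. A list of 20 genes was written after these values were seen, and it also holds Nr3c1, the gene of the glucocorticoid receptor itself. In it, 14 had a negative log2 fold change, Nr3c1 among them at -0.02, and the median was -0.22. Of the 20, 10 were lower in every day 3 tumour, against 6.65% of all genes. Another, Mt2, was higher in every day 3 tumour, against 6.49% of all genes. In edgeR 0 passed, and 9 had an unadjusted p under 0.05 in either direction, against 30.2% of all genes. Of these 9, Errfi1 was higher (log2 fold change 1.25 ± 0.48). Since the list was chosen on these tumours and holds Hif3a and Plin4, it is a description. Clock genes, Per2 among them, were also listed afterwards. They were negative in 13 of 14 cases, with a median of -0.79 and 0 passing. Of the 14, 8 were lower in every day 3 tumour, against 6.65% of all genes. An unadjusted p under 0.05 was reached by 9, against 30.2% of all genes. Per1, a member of both lists, stood at 169, 148 and 216 CPM and then at 106, 81.2 and 49.9 CPM. Dbp, whose groups overlapped, stood at 81.6, 89.3 and 68.9 CPM and then at 77.6, 28.1 and 30.6 CPM. The labels give no hour of tissue collection.

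Over all genes, 18 were at least 2-fold above the highest day 0 tumour and 8 at least 2-fold below the lowest in every day 3 tumour, with a mean of at least 1 CPM in the higher group. Only the mean had a floor, so a single day 3 tumour could meet the rule at a very low level. Igkv1-135 stood at 0 CPM in each day 0 tumour. At day 3 it stood at 0.0271 CPM in replicate 1 against 7.47 CPM in replicate 2. Igkv6-32, also at 0 CPM throughout day 0, stood at 0.0514 CPM in day 3 replicate 3 against 18 CPM in replicate 2. Both are among the 7 immunoglobulin segments of the 18. The others include genes of macrophages and matrix: Cd5l, a macrophage protein, stood at 0.521, 0.353 and 0.0882 CPM and then at 3.20, 4.44 and 5.91 CPM. Atp6v0d2, a proton pump subunit of osteoclasts and macrophages, stood at 0.213, 0.108 and 0.0441 CPM and then at 1.47, 1.61 and 2.52 CPM. Rgs1 stood at 0.899, 0.217 and 0.265 CPM and then at 1.84, 7.61 and 7.58 CPM. Cma1, a chymase of mast cells, was among them too, at 0.0710, 0.0271 and 0.0441 CPM and then 0.163, 4.74 and 8.71 CPM, where the 18 treated tumours reached at most 0.909 CPM. Among the 8 lower genes, Ppp1r3g, a glycogen-targeting subunit, stood at 11.3, 9.74 and 15.3 CPM and then at 4.02, 1.87 and 0.951 CPM.

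Markers of neighbouring brain regions varied between tumours of one day. Ttr, of the choroid plexus, stood at 510 CPM in day 0 replicate 3 and at 1.51 CPM or less in the other 5 vehicle tumours. Hcrt and Pmch, peptides of the lateral hypothalamus, stood at 28.8 and 39.7 CPM in day 3 replicate 1 and at 1.41 and 2.14 CPM or less elsewhere among the 6. Penk, of striatal neurons, stood at 261, 616 and 36.8 CPM at day 0 and at 610, 21.7 and 204 CPM at day 3. Aqp1, a water channel placed in the choroid plexus list, followed Egfr instead, at 31.4, 1.63 and 4.01 CPM and then 0.760, 424 and 359 CPM.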
